A study of Mus musculus with 62 samples.

Results

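A set of 10 genes of the circadian clock were followed in chronically stressed and unstressed mice, in tissue of the prefrontal cortex (PFC) and of the nucleus accumbens (NAc). The members were the rows of the count table whose Ensembl identifier maps to Tef, Dbp, Hlf, Per1, Per2, Per3, Nr1d1, Nr1d2, Arntl or Clock, and all 10 were present among the 11121 genes. The rule reads gene symbols alone, but the set was proposed with earlier results of these libraries known and may have been selected on them. In particular, Tef stood 7th of 10141 genes by p-value for stress in the NAc, so its level there is given as a description.

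The study asked how chronic stress alters gene expression in both regions. All animals were wild-type male C57BL/6j mice aged 15 weeks, either unstressed controls (CTR) or exposed to multimodal chronic restraint stress (mCRS), a protocol of repeated daily restraint under varying conditions, with tissue collected days after the last session. BRB-seq, which reads the 3′ ends of polyadenylated RNA from barcoded and pooled samples, gave 15 PFC CTR, 15 PFC mCRS, 16 NAc CTR and 16 NAc mCRS libraries. The labels do not tie PFC libraries to NAc libraries of the same mouse, and the time of day of collection is not given in the sources used here, so clock phase could not be set beside any value.

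In the mammalian clock, CLOCK and BMAL1 (encoded by Arntl) activate genes with E-box elements, among them the Per genes, Nr1d1, Nr1d2 and Dbp. PER proteins feed back to repress CLOCK and BMAL1, and REV-ERBα and REV-ERBβ (encoded by Nr1d1 and Nr1d2) repress Arntl. Dbp, Tef and Hlf encode the PAR bZIP transcription factors, which carry the rhythm to output genes through D-box elements. In the brain one such output is pyridoxal kinase (Pdxk), which makes the active form of vitamin B6 used in neurotransmitter synthesis.

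The genes lie at chr15:81802421-81826863 (Tef), chr7:45705088-45710203 (Dbp), chr11:90336536-90390895 (Hlf), chr11:69095217-69109960 (Per1), chr1:91415982-91459324 (Per2), chr4:151003652-151044665 (Per3), chr11:98767932-98775333 (Nr1d1), chr14:18204054-18239127 (Nr1d2), chr7:113207465-113314126 (Arntl) and chr5:76209868-76304792 (Clock) of GRCm38. Tef shares 193 exonic bases at its 5′ end with the antisense gene Gm17597, and Arntl shares 33 with the antisense gene Gm45355. Of the members, 9 had promoter sequence in the RefSeq table for GRCm38.p6, which covers 250 bases before and 50 after a gene start; Per2 had no entry. The windows below show where the letters of clock elements, through which the members are known to regulate one another, and of the cAMP response element occur in these promoters. Each runs 5′ to 3′ on the strand of the gene, with the element in capitals.
Tef first start, E-box CACGTG, chr15:81802534-81802563: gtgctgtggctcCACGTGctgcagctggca
Tef second start, E-box CACGTG, chr15:81811264-81811293: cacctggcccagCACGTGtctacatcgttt
Per1, E-box CACGTG, chr11:69098771-69098800: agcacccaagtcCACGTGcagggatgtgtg
Per1, D-box variant TTATGCAA, chr11:69098914-69098943: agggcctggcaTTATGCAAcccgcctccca
Per3 upstream D-box TTATGTAA, chr4:151044852-151044881: cgacccgcgcgTTATGTAAggtactcgggg
Per3 downstream D-box TTATGTAA, chr4:151044805-151044834: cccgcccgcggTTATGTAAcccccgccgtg
Arntl, ROR element TAGGTCA, chr7:113207530-113207558: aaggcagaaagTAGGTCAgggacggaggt
Hlf, cAMP response element TGACGTCA, chr11:90390918-90390937: ggtgcgggcccTGACGTCAc

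Tef held an E-box before each of its annotated starts, 127 and 138 bases upstream. The Per3 promoter held the D-box letters at 205 and 158 bases before its start, and Per1 held the E-box at 166 bases and the D-box variant at 24 bases. Both strands were searched, and of 32851 promoters 7.15% held CACGTG, 0.938% TTATGTAA, 0.743% TTATGCAA, 2.61% TAGGTCA and 1.79% TGACGTCA. The windows of Dbp, Nr1d1, Nr1d2 and Clock held none of these letters. A match describes the letters alone and was not tested as a binding site.

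Total counts ran from 945286 to 4857359 per library. PFC mCRS libraries detected 82.3% ± 6.22 (SD, n = 15) of the listed genes, against 87.1% ± 4.42 (n = 15) in the CTR libraries of that region, and the NAc libraries 90.2% ± 7.13 (CTR, n = 16) and 88.5% ± 7.43 (mCRS, n = 16). Mitochondrial (mtDNA) transcripts took 16.04% ± 3.64 of the counts in PFC mCRS and 12.9% ± 3.004 in PFC CTR libraries, against 10.6% ± 1.60 in NAc mCRS and 10.3% ± 1.31 in NAc CTR libraries. Markers matched the labelled tissues: in CTR mice all 12 striatal projection neuron markers were lower and all 12 cortical excitatory neuron markers higher in the PFC than in the NAc, with 10 of each at an FDR (Benjamini-Hochberg adjusted p) below 0.05 in edgeR. NAc CTR library 7 stood apart, with a summed striatal marker level of 601 CPM (counts scaled to the size of the library), within the PFC range of 466 to 1617 and below the 2844 of the next NAc library. NAc mCRS library 10 held 21947 CPM of choroid plexus transcripts, against at most 318 in any other NAc library. Values without these libraries are given beside several results of the PAR bZIP genes, Pdxk and the NAc correlations. In bulk tissue, fewer cells of a type and less RNA per cell cannot be told apart.

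Tef was the member with the lowest p-value for stress. In the NAc its level ran from 154 to 472 CPM in CTR mice, with a median of 260, and from 54.8 to 350 CPM in mCRS mice, with a median of 191. Of the 16 mCRS libraries, 15 lay below the CTR median, although the ranges of the groups overlapped. The mean log2 CPM was 8.04 ± 0.41 (SD, n = 16) in NAc CTR and 7.40 ± 0.65 (n = 16) in NAc mCRS, where Dbp had an SD of 0.46 and Hlf of 0.55. In the PFC the level ran from 75.4 to 307 CPM in CTR mice, with a median of 198, and from 88.3 to 281 CPM in mCRS mice, with a median of 207. The PFC groups covered nearly the same range, with means of 7.49 ± 0.56 and 7.52 ± 0.51 (n = 15 each).

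In the NAc fit the mCRS value of Tef was 0.674 times that of CTR, a log2 fold change of -0.57 (SE 0.19), and it did not pass the adjustment over all genes (FDR near 1, edgeR quasi-likelihood test). The log2 fold change lay between -0.66 and -0.49 when each library was left out in turn, and it was -0.56 without NAc CTR library 7 and -0.54 without NAc mCRS library 10. Among libraries numbered 1 to 8 the mean log2 CPM of mCRS minus CTR was -0.79 (SE 0.32), and among those numbered 9 and above it was -0.48 (SE 0.23, 8 libraries per group in each). In the PFC the fitted log2 fold change of Tef was 0.03 (SE 0.22, 95% interval -0.40 to 0.45). There the libraries numbered 1 to 8 gave -0.38 (SE 0.24) and those numbered 9 and above gave 0.50 (SE 0.25), so the sign in the PFC differed by numbering. The labels do not say what the numbering stands for, and this difference was not tested.

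The difference between regions in the stress response of Tef was 0.59 on the log2 scale (SE 0.28, 95% interval 0.04 to 1.14), with an FDR near 1 in edgeR over 11025 genes. Its unadjusted edgeR p stayed below 0.05 in only 38 of the 62 fits that each left out a library. Among the fits where it was above 0.05 were those without NAc CTR library 2 or NAc mCRS library 10. The values there were 0.52 and 0.56. This comparison shares the NAc libraries with the preceding one. Tef may have been selected on its values there, so the difference is given as a description.

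Endothelial markers had fitted values of the same sign as Tef for stress in the NAc, with 1 exception. Of 8 listed, 7 were counted, and their summed level ran from 169 to 520 CPM in NAc CTR, with a median of 309, and from 74.3 to 378 CPM in NAc mCRS, with a median of 226. For stress in the NAc 6 of the 7 had log2 fold changes below 0, with a median of -0.55, none at an FDR below 0.05 and 1 at an unadjusted p below 0.05 in edgeR (Cldn5, a tight junction gene, -0.87, SE 0.41). Over all genes 50.7% lay below 0 and 2.04% had an unadjusted p below 0.05. Below 0 were also 4 of 8 astrocyte, 4 of 8 oligodendrocyte and 4 of 8 microglia markers. The same held for 6 of 12 striatal, 1 of 5 cortical excitatory and 0 of 3 choroid plexus markers. In the PFC the medians of the summed level were 296 CPM (CTR) and 325 CPM (mCRS). Only 4 of the 7 endothelial markers passed the count filter among PFC libraries, with 2 above and 2 below 0 for stress. In the difference between regions all 7 lay above 0, as Tef did and as 48.9% of all genes did. Their median was 0.43, with none at an unadjusted p below 0.05 in edgeR. The part of endothelial cells in the Tef values was not tested.

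**Figure D1:**
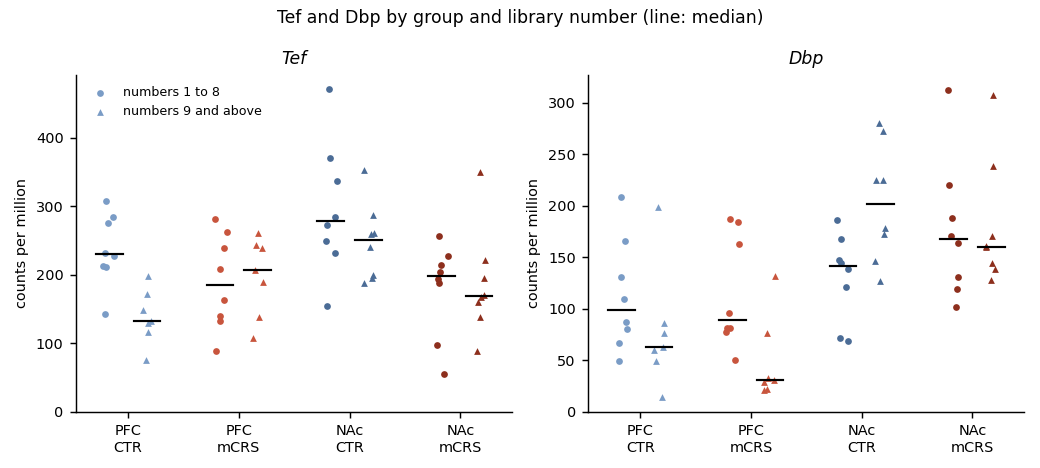
Level of Tef (left) and Dbp (right) in CPM in every library, by region and treatment; circles are libraries numbered 1 to 8, triangles those numbered 9 and above, and lines are medians. Tef in NAc mCRS has a median of 191 against 260 in NAc CTR with overlapping ranges, and Dbp is lower in the PFC than in the NAc, most of all in PFC mCRS libraries numbered 9 and above.

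Dbp, a PAR bZIP gene with a strong daily rhythm in many tissues, differed between regions. Its level ran from 14.3 to 209 CPM in PFC CTR, with a median of 80.0, and from 69.1 to 280.0 CPM in NAc CTR, with a median of 158. In PFC mCRS it ran from 20.7 to 187 CPM, with a median of 77.1, and in NAc mCRS from 102 to 313 CPM, with a median of 162. In each treatment 12 of the 15 PFC libraries lay below the NAc median, with overlapping ranges. In mCRS mice Dbp was lower in the PFC than in the NAc, at 0.472 times the NAc value (log2 fold change -1.08, SE 0.28, edgeR FDR 0.0059). It passed the threshold under all 8 other settings, with log2 fold changes between -1.40 and -1.03, and in all 31 fits that left out a library, with FDRs between 0.0017 and 0.014 (-1.09, FDR 0.0066 without NAc mCRS library 10). In CTR mice the corresponding log2 fold change was -0.79 (SE 0.28) and did not pass (edgeR FDR 0.086), other than with DESeq2 (-0.86, adjusted p 0.025) and in the fits without PFC CTR library 3 or 15 (-0.91 and -0.89, edgeR FDR 0.038 and 0.045).

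The stress response of Dbp did not differ detectably between regions, at -0.29 on the log2 scale (SE 0.39, 95% interval -1.06 to 0.47). Within regions the log2 fold change for stress was -0.19 for the PFC (95% interval -0.91 to 0.52) and 0.09 for the NAc (95% interval -0.30 to 0.48). The gap between regions was wider among libraries numbered 9 and above. There the mean log2 CPM of PFC minus NAc was -2.13 (SE 0.40) in mCRS mice and -1.65 (SE 0.45) in CTR mice, against -0.67 (SE 0.30) and -0.28 (SE 0.31) among libraries numbered 1 to 8, a difference that was not tested. With the numbering split entered in the fit the log2 fold change in mCRS mice was -1.14 (edgeR FDR 0.0038).

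Oligodendrocyte markers moved with region as well. All 8 passed the count filter and were lower in the PFC of mCRS mice, 6 at an FDR below 0.05, with a summed level of 2602 to 7193 CPM against 5371 to 8576 CPM in the NAc. Other cell type lists also moved in mCRS mice. At that FDR 12 of 12 striatal, 3 of 3 choroid plexus and 1 of 8 astrocyte markers were lower in the PFC. Higher there were 10 of 12 cortical excitatory markers, and no microglia or endothelial marker passed. The share of genes detected was also lower in the PFC, and with that share entered in the fit the log2 fold change of Dbp was -1.03 (edgeR FDR 0.015). The mtDNA share was higher in the PFC, and with mtDNA genes left out of the library sizes the value was -1.08 (edgeR FDR 0.0059). The part of cell composition in the result was not tested. At its 3′ end Dbp shares 539 exonic bases with Sphk2, a sphingosine kinase gene on the opposite strand, and whether strand was used in counting is not given in the sources used here. Sphk2 itself had a log2 fold change of 1.05 (SE 0.70) between PFC and NAc in mCRS mice, opposite in sign to that of Dbp, and -0.35 (SE 0.69) in CTR mice.

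Hlf, the remaining PAR bZIP gene, lay the other way. Its level ran from 39.9 to 428 CPM in PFC CTR, with a median of 211, and from 2.90 to 199 CPM in NAc CTR, with a median of 116. In PFC mCRS it ran from 50.5 to 385 CPM, with a median of 154, and in NAc mCRS from 34.4 to 185 CPM, with a median of 97.5. In each treatment 11 of 15 PFC libraries were above the NAc median. In CTR mice Hlf was 1.95 times as high in the PFC as in the NAc (log2 fold change 0.97, SE 0.30, edgeR FDR 0.038). This call held in 20 of 31 fits that left out a library. It was lost without any one of PFC CTR libraries 5, 6, 8, 9 and 15 (0.87, FDR 0.090 without the last) and of NAc CTR libraries 3, 4, 7, 11, 14 and 16 (0.91, FDR 0.061 without NAc CTR library 7), and with RLE normalization (0.91, FDR 0.059). The fits that lost the call kept its direction. The mean log2 CPM of PFC minus NAc in CTR mice was 2.12 (SE 0.75) among libraries numbered 1 to 8 and 0.23 (SE 0.52) among those numbered 9 and above. With the share of genes detected in the fit the log2 fold change was 1.12 (edgeR FDR 0.012). In mCRS mice the log2 fold change was 0.65 (SE 0.30, FDR 0.25). The lowest NAc value came from NAc CTR library 2, with 3 Hlf counts in the smallest library of the series, and without it the call stayed (0.89, FDR 0.048).

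Averaged over CTR and mCRS mice, a comparison added after the values were seen, Dbp was lower in the PFC (log2 fold change -0.94, SE 0.20, edgeR FDR 0.00019) and Hlf higher (0.81, SE 0.21, FDR 0.0042). Without NAc CTR library 7 the averaged values were -0.94 (FDR 0.00021) and 0.78 (FDR 0.0059), and without NAc mCRS library 10 they were -0.94 (FDR 0.00022) and 0.81 (FDR 0.0047). The other members did not pass, with log2 fold changes between -0.89 for Per3 and 0.52 for Nr1d2. The share of all genes passing in this averaged comparison is not given here, so no background stands beside these calls. Taken by treatment, 5.44% (CTR) and 6.49% (mCRS) of 11025 genes passed between regions. Thus of the PAR bZIP genes, the averaged region difference had opposite signs for Dbp and Hlf, and was -0.22 (SE 0.14, FDR 0.42) for Tef. Taken by treatment, the region difference of Tef was -0.51 (SE 0.20, edgeR FDR 0.16) in CTR mice, where DESeq2 called it (-0.59, adjusted p 0.026), and 0.08 (SE 0.20) in mCRS mice, in the same NAc libraries as its stress values.

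By group of mice, 1 of 10 members (Hlf) passed an FDR of 0.05 for region in CTR mice, where 5.44% of 11025 genes passed, and 1 of 10 (Dbp) in mCRS mice, where 6.49% passed. At an unadjusted p below 0.05 there were 3 members in CTR mice (Tef, Dbp and Hlf) against 13.3% of all genes, and 2 in mCRS mice (Dbp and Hlf) against 15.8%. The median log2 fold change of the members was -0.03 in CTR mice and 0.08 in mCRS mice, beside -0.04 and -0.06 over all genes. DESeq2 called the same 3 genes, Tef, Dbp and Hlf, at an adjusted p below 0.05 in CTR mice, where it called 6.8% of 11121 genes, and Dbp alone in mCRS mice, where it called 8.73%. At an unadjusted p below 0.05 DESeq2 had 3 members in CTR mice (background 15.8%) and 1 in mCRS mice (background 18.8%).

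**Figure D2:**
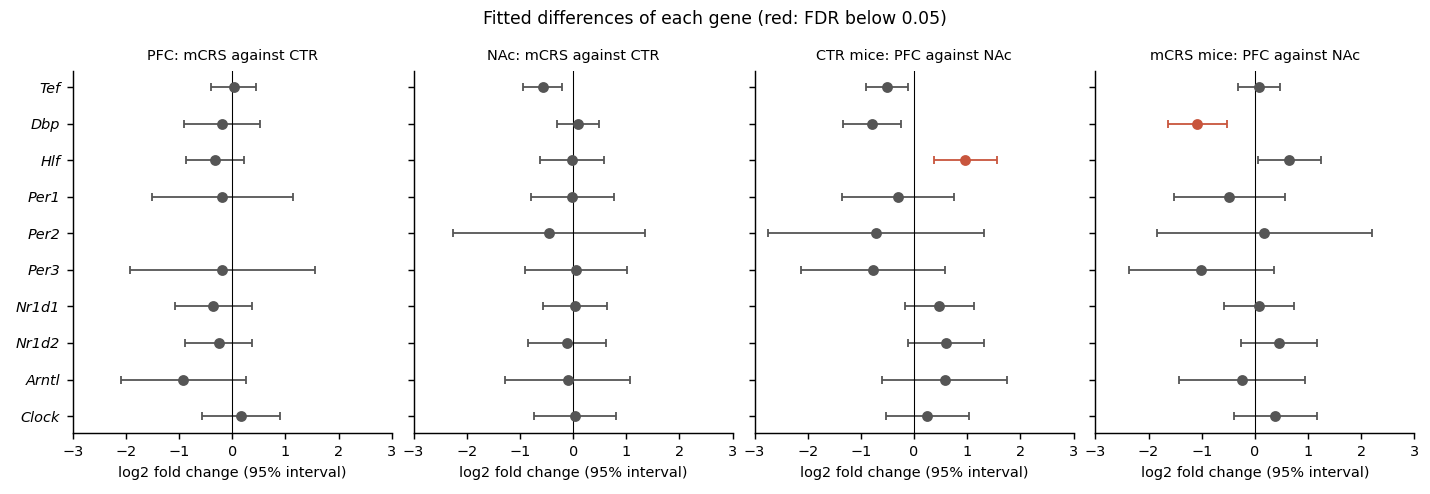
Fitted log2 fold change of each gene with its 95% interval for stress in each region and for PFC against NAc in each treatment (edgeR); red marks an FDR below 0.05. Red points are Hlf in CTR mice at 0.97 and Dbp in mCRS mice at -1.08; Per2 has no PFC stress value because it failed the count filter there.

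The Per genes, which encode the negative limb of the clock, were sparsely counted. Per1, which is also induced quickly by glucocorticoids and by CREB, had PFC medians of 40.7 CPM in CTR and 29.6 in mCRS mice, and NAc medians of 50.2 and 48.1 CPM. It had 0 counts in 3 of 15 PFC mCRS libraries and in no library of the other groups, where the lowest had 1 count. Per2 had medians between 1.66 CPM in PFC CTR and 7.75 CPM in PFC mCRS. It had 0 counts in 4 or 6 libraries of each group, so differences in it could not be resolved in these libraries. Per3 had PFC medians of 19.5 CPM in CTR and 8.17 in mCRS mice, and NAc medians of 37.4 and 46.8 CPM.

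Per3 had 0 counts in 6 of 15 PFC mCRS libraries and in 1 library of each other group. The log2 fold change for stress was -0.18 for Per3 and -0.19 for Per1 in the PFC, with 95% intervals of -1.92 to 1.56 and -1.52 to 1.14. In the NAc the values were 0.05 for Per3 and -0.01 for Per1, with intervals of -0.91 to 1.01 and -0.80 to 0.77. For Per1 and Per3 the libraries at 0 thus lay mostly in the PFC mCRS group. By mean log2 CPM, which weighs each library alike, mCRS minus CTR in the PFC was -1.28 (SE 0.87) for Per3 and -0.80 (SE 0.78) for Per1, so the size for these sparse genes depended on the scale. With the share of genes detected entered in the fit the PFC values were -0.14 for Per3 and 0.15 for Per1. Across PFC libraries r with that share, after centring by group, was -0.04 for Per3 and 0.25 for Per1. Between regions Per3 was -0.76 (SE 0.69) in CTR mice and -1.01 (SE 0.70) in mCRS mice on the log2 scale, and neither passed (edgeR FDR 0.79 and 0.55). By mean log2 CPM the Per3 differences were -0.96 (SE 0.63) and -2.35 (SE 0.83), with 13 of 15 PFC mCRS libraries below the NAc mCRS median.

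Nr1d1 and Nr1d2, the nuclear receptors that repress Arntl, did not pass an FDR of 0.05 in any comparison. Nr1d1 had PFC medians of 105 CPM in CTR and 77.2 in mCRS mice and NAc medians of 60.8 and 74.7 CPM, and its spread was wider in PFC mCRS (SD 1.68 of log2 CPM, lowest library 1.35 CPM) than in PFC CTR (SD 0.49, lowest 66.1 CPM). Between regions the log2 fold change of Nr1d1 was 0.48 (SE 0.33, edgeR FDR 0.65) in CTR mice and 0.07 (SE 0.33) in mCRS mice. All 15 PFC CTR libraries lay above the NAc CTR median of Nr1d1, with overlapping ranges, and 8 of 15 in mCRS mice. Its mean log2 CPM of PFC minus NAc was 0.50 (SE 0.19) in CTR mice and -0.25 (SE 0.50) in mCRS mice. The 3′ end of Nr1d1 shares 263 exonic bases with Thra, the thyroid hormone receptor α gene on the opposite strand. The counts of both genes thus depend on how reads of the shared bases were assigned, which is not given in the sources used here. Thra had a log2 fold change for stress of -0.20 (SE 0.16) in the PFC, beside -0.36 (SE 0.37) for Nr1d1. By mean log2 CPM the stress difference of Nr1d1 in the PFC was -0.84 (SE 0.45). Nr1d2 had medians of 141 (CTR) and 110 CPM (mCRS) in the PFC and of 115 and 82.7 CPM in the NAc, and a region difference of 0.60 (SE 0.37) in CTR mice.

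Of the activators, Arntl had the largest fitted stress value of the members in the PFC. It ran from 14.5 to 123 CPM in PFC CTR, with a median of 44.3, and from 0 to 68.2 CPM in PFC mCRS, with a median of 21.0. The log2 fold change was -0.92 (SE 0.60, 95% interval -2.10 to 0.26, edgeR FDR near 1), and the ranges overlapped. By mean log2 CPM the Arntl difference was -1.49 (SE 0.60), with 11 of 15 PFC mCRS libraries below the PFC CTR median. The size for Arntl thus depended on the scale. In the NAc its medians were 25.1 CPM in CTR and 22.0 in mCRS, with a log2 fold change of -0.10 (SE 0.60). Clock had medians of 90.8 (CTR) and 109 CPM (mCRS) in the PFC and of 56.3 and 73.6 CPM in the NAc, with log2 fold changes for stress of 0.16 (SE 0.38) in the PFC and 0.03 (SE 0.39) in the NAc.

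**Figure D3:**
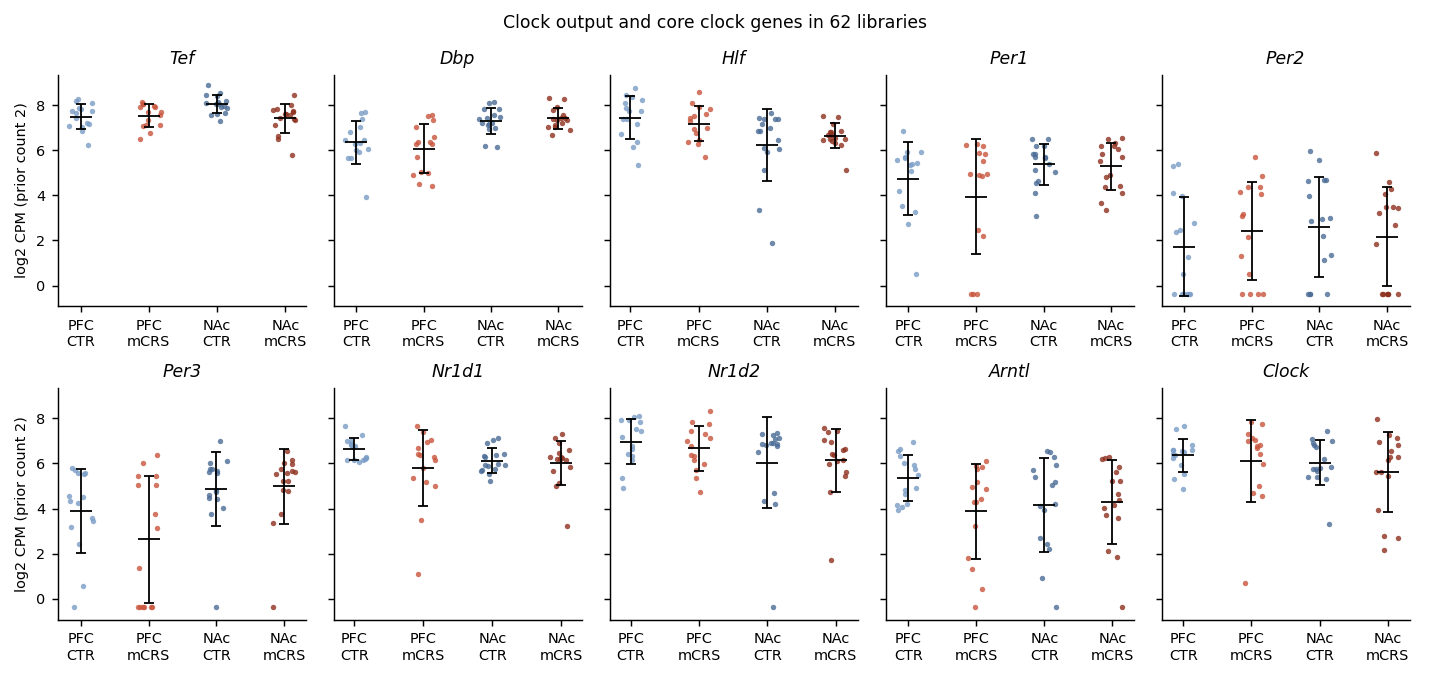
Level of each gene as log2 CPM (prior count 2) in all 62 libraries by group; points are libraries, and bars are the mean and SD. The spread is narrow for Tef (SD 0.41 to 0.65) and wide for Per2 and Per3, whose libraries at the lower edge had 0 counts.

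For stress, 0 members passed an FDR of 0.05 in the PFC, where 9 were tested and 0% of 8916 genes passed in edgeR, and 0 of 10 in the NAc, where 0.00986% of 10141 genes passed. The latter is a single gene, the choroid plexus marker Ttr, and without NAc mCRS library 10 none passed. At an unadjusted p below 0.05 there were 0 members in the PFC (background 3.5%) and 1 in the NAc, Tef (background 2.04%). DESeq2 also gave 0 members and 1 member at an unadjusted p below 0.05 in the PFC and NAc, beside 5.18% and 3.53% of all genes, and called 0 of 10 in the NAc (background 0%). In the PFC DESeq2 gave an adjusted p to 772 genes, no member among them, and called 0.648% of these. In the PFC 7 of the 9 members had values below 0, with a median of -0.19 beside -0.01 over all genes. In the NAc 6 of 10 were below 0, with a median of -0.01. For the difference between regions in the stress response 0 of 10 passed an FDR of 0.05 (background 0.00907%) and 1, Tef, had an unadjusted p below 0.05 (background 3.09%). DESeq2 again called 0 (background 0.00899%), with 1 member at an unadjusted p below 0.05 (background 4.16%).

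The biological coefficient of variation, the fitted spread between libraries of a group, was 0.445 for Tef and 0.686 for Dbp across PFC libraries, below the median of 1.01 over all genes tested there, and 0.547 for Hlf. Across NAc libraries it was 0.397 for Tef, 0.418 for Dbp and 0.602 for Hlf, below a median of 0.924. For Per3 it was 1.54 in the PFC, and for Per2 1.68 in the NAc. These genes also differ in level. In the PFC Tef, Dbp and Hlf stood at percentiles 89.0, 72.5 and 88.4 of average log2 CPM, and Per3 at 19.8. In the NAc they stood at 93.2, 89.9 and 80.4, and Per2 at 7.41. The spread was not compared with genes of like level.

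Of 20 further clock genes listed, 16 were counted. None passed for stress in either region in edgeR, and none had an unadjusted p below 0.05 there (14 tested in each).

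Of 4 output enzymes of the PAR bZIP factors, 1 (Pdxk) passed between regions in mCRS mice, beside 6.49% of all genes. Pdxk was lower in the PFC there (log2 fold change -1.20, SE 0.24, edgeR FDR 0.00012). In CTR mice its value was -0.71 (SE 0.23, FDR 0.056). It was -0.70 (FDR 0.067) in CTR mice without NAc CTR library 7 and -1.22 (FDR 0.00013) in mCRS mice without NAc mCRS library 10. The median of the 4 was -0.34 in CTR mice and -0.89 in mCRS mice, where 1 of the 4 lay above 0. None passed for stress in either region (0 of 4, with 0 at an unadjusted p below 0.05). The Pdxk and Dbp values thus had the same sign between regions, in libraries they share. Hlf had the opposite sign (0.97 in CTR and 0.65 in mCRS mice), and Tef was -0.51 and 0.08. A link of Pdxk to these genes was not tested.

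Because Per1 responds to glucocorticoids and CREB, target lists were set beside the members. For stress 0 glucocorticoid targets passed (11 tested in PFC libraries, 10 in NAc libraries), with 1 (Ddit4, 2.02, SE 0.73) and 0 at an unadjusted p below 0.05. Among immediate early genes driven by CREB 0 passed for stress (9 tested in PFC libraries, 7 in NAc libraries), with 1 (Egr1, -0.51, SE 0.24) and 0 at an unadjusted p below 0.05. Between regions of CTR mice 1 glucocorticoid target was lower in the PFC (Ddit4, -2.21, SE 0.58, FDR 0.0075) and 1 immediate early gene higher (Egr1, 1.03, SE 0.24, FDR 0.0015), and none of either list passed in mCRS mice, with 2 of each at an unadjusted p below 0.05 in edgeR. Of the other cell type lists in CTR mice, 1 of 8 astrocyte, 5 of 8 oligodendrocyte and 1 of 3 choroid plexus markers were lower in the PFC, and 0 of 8 microglia and 0 of 7 endothelial markers passed or had an unadjusted p below 0.05 in edgeR.

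Co-variation between libraries was examined as deviations of log2 CPM from the group mean, so that group differences do not enter. Over 17 pairs of Dbp with another member, 9 in the NAc and 8 in the PFC, none passed a permutation test within groups after adjustment over the pairs. The strongest in the PFC was Dbp with Per3 (r = 0.47, Spearman's rho 0.38, n = 30, permutation p = 0.014 and 0.053, adjusted p = 0.21 and 0.23). Without the 2 libraries farthest from the Dbp median r was 0.30. Leaving them out also narrows the range of Dbp, so this value cannot tell whether the relation rests on those libraries. With each part of the numbering centred by itself r was 0.53 (permutation p = 0.0041, adjusted p = 0.070), and Dbp with Nr1d2 in the PFC then had r = 0.43 (permutation p = 0.014, adjusted p = 0.12), against 0.23 without that step. Within groups r was 0.62 in PFC CTR and 0.38 in PFC mCRS (n = 15 each). In the NAc the same pair gave r = 0.20 and rho 0.38 (n = 32, permutation p = 0.29 and 0.037, adjusted p = 0.61 and 0.21).

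In the NAc Dbp and Clock had r = -0.38 (rho -0.42, n = 32, permutation p = 0.025 and 0.017, adjusted p = 0.21 for both). Within groups r was -0.11 in NAc CTR and -0.62 in NAc mCRS (n = 16 each), and the difference was not tested. Without NAc CTR library 7 or NAc mCRS library 10 r was -0.37 or -0.38, and no correlation of Dbp with a member in the NAc changed sign without either library. Dbp and Tef, both PAR bZIP genes, had r of 0.10 in the PFC and 0.06 in the NAc (permutation p = 0.61 and 0.74). Dbp and Hlf had r of 0.26 and 0.29 (permutation p = 0.16 and 0.15). The antiphase partner Arntl had r of 0.24 and 0.30 with Dbp (permutation p = 0.23 and 0.11), above 0 in both regions. Its Spearman's rho with Dbp was 0.21 in the PFC and 0.40 in the NAc (permutation p = 0.30 and 0.026, adjusted p = 0.72 and 0.21). By group its r was 0.11 in NAc CTR and 0.57 in NAc mCRS (n = 16 each), and the difference was not tested.

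Across all pairs of members, r ran from -0.22 to 0.47 with a median of 0.07 over 36 pairs in the PFC, and from -0.38 to 0.64 with a median of 0.04 over 45 pairs in the NAc. The medians of the members' pairs with all other tested genes were 0.01 and 0.04. Of those pairs 95% lay between -0.36 and 0.42 in the PFC and between -0.35 and 0.47 in the NAc. Outside these bounds were 1 of 36 member pairs in the PFC (2.78%) and 3 of 45 in the NAc (6.67%). The highest pair was Per3 with Nr1d1 in the NAc (r = 0.64), which had r = 0.07 in the PFC. Without NAc CTR library 7 its r was 0.65, and without NAc mCRS library 10 it was 0.66. In the NAc Hlf had r = 0.47 with Nr1d2, both of which also went with the share of genes detected in a library (r = 0.46 and 0.44). These pairs are descriptions and were not tested.

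**Figure D4:**
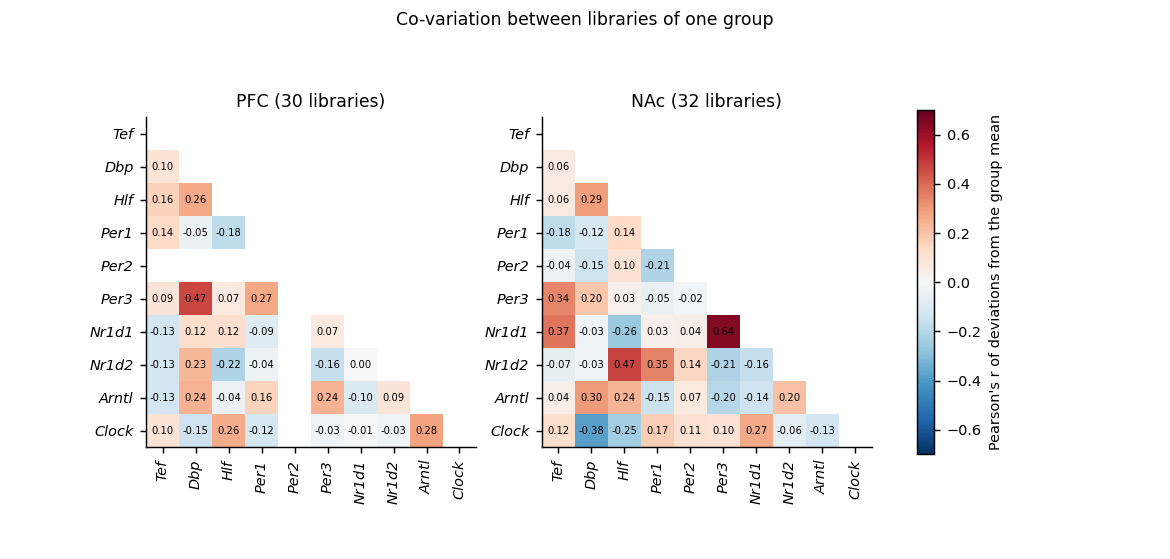
Pearson's r between members, from deviations of log2 CPM from the group mean, in PFC (left, 30 libraries) and NAc (right, 32 libraries); blank cells are pairs with Per2, which failed the PFC filter. The medians are 0.07 (left) and 0.04 (right), with the highest values for Dbp and Per3 in the PFC (0.47) and Per3 and Nr1d1 in the NAc (0.64).

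The genes most like Dbp by the mean of r in both regions, among 8716 genes tested in each, were Sirpa, Nipbl, Camkk1, Igsf9b and Zfp467, with means from 0.44 to 0.51. Of the members, Per3 ranked 77th, Hlf 200th and Arntl 233rd of 8715 in likeness to Dbp, while Clock ranked 8561st. The genes most like Tef were Dnm2, Naa35, Rb1cc1, Lman2l and Jarid2, with means from 0.48 to 0.59, and its nearest member was Per3 at rank 893. All these values share library depth and the same normalization.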

How the data were processed

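BRB-seq libraries were prepared by the authors from total RNA of the PFC and NAc; reads were mapped with STAR to GRCm38 and uniquely mapped reads counted per gene with HTSeq. The deposited values are raw counts without molecular identifiers, for 11121 genes and 62 libraries, so PCR duplicates remain in them. Whether strand was used in counting is not given in the sources used here. PFC samples of poor sequencing quality had been removed by the authors.

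Counts were tested with edgeR 4.0.16 (R 4.3.3): TMM factors, filterByExpr by group and quasi-likelihood F tests, within each region for mCRS against CTR and over all 62 libraries for regions and for the interaction. Log2 fold changes are given with the SE and a 95% interval of 1.96 SE, and FDR is adjusted over all genes tested. Libraries come from separate mice within a region, but PFC and NAc libraries of 1 mouse could not be paired and were taken as independent. CPM and log2 CPM (prior count 2) use TMM factors of all libraries. Correlations used 100000 two-sided permutations within groups, adjusted over 17 pairs. The fits and the permutation test were tested on simulated data. Alternatives were DESeq2 1.42.0, RLE, library sizes without mtDNA genes, other filters, covariates, the replicate number as a block, and each library left out; the values without NAc CTR library 7 or NAc mCRS library 10 of the averaged region difference, Pdxk and the correlations were added after seeing the data.

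The members, gene lists and tests were chosen with earlier results of these data known. Genes named are the 10 members, up to 6 other clock genes, up to 3 genes of a list, and the 5 genes most like Dbp and Tef. Coordinates are from GENCODE M21 and promoters from RefSeq. The comparison of the further clock genes between regions is not reported here.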

Additional observations from a re-analysis of the deposited data

How the results depend on the processing

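The counts of members called for stress (0 in each region and 0 for the difference between regions) were 0 under each alternative that gave adjusted values and with each library left out; DESeq2 gave no adjusted p for the members in the PFC. For PFC against NAc of CTR mice, where 1 member passed, the count was 0 with RLE, 0 with the replicate block, 3 with DESeq2, 2 in the mean over both treatments and 0 to 2 with a library left out. For mCRS mice it was 1, and 2 in the mean over both treatments, for which the share of all genes called is not given. With RLE and the replicate block the log2 fold change of Hlf in CTR mice was 0.91 and 1.09, with FDRs of 0.059 and 0.052. Same-numbered libraries of different groups correlated between -0.03 and 0.053 in their deviations, and at most 2 of 15 correlated best with their own number, so the numbers were not taken as pairing; the replicate block moved no other count of calls. It moved sizes of sparse members that did not pass: for stress in the PFC Per3 became -2.21 (SE 1.48), Per1 -0.59 (SE 1.04) and Arntl -1.47 (SE 0.87), and in PFC against NAc of mCRS mice Per3 became -3.20 (SE 1.31, FDR 0.17).

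Stress values that turned in sign lay within 1 SE of 0. In the NAc that of Hlf became 0.014 with RLE, with the numbering split and with DESeq2, 0.11 with the share of genes detected and 0.20 with the replicate block. That of Clock became -0.034 with the share of genes detected and -0.19 with the replicate block, where Nr1d1 became -0.017 and Arntl 0.15. In the PFC Per1 became 0.15 with the share of genes detected and Clock -0.12 with the replicate block. Correlations with Dbp that turned in sign lay within 0.15 of 0. With each part of the numbering centred they became -0.0060 (Tef), 0.11 (Per1) and 0.033 (Clock) in the PFC and 0.030 (Nr1d1) in the NAc. By rank they became -0.0082 (Nr1d1, PFC) and -0.052 (Tef, NAc). Without the 2 libraries farthest from the Dbp median they became 0.074 (Per1, PFC), and in the NAc -0.041 (Tef), 0.040 (Per1), 0.016 (Nr1d1) and 0.071 (Nr1d2).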
